A study of Mus musculus with 69 samples.

Results

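The comparison is of the early skin response to TPA in SPR mice with that in F1 mice: for every gene, the log2 change at 4 h in SPR less the log2 change at 4 h in F1. It rests on 10 of the 69 arrays, chosen by the strain and time in their labels, and not by any measured value. SPR at 4 h had 2 arrays and SPR at 0 h had 2, while F1 at 4 h had 2 arrays and F1 at 0 h had 4. SPR stands for Spret/Ei, a wild-derived inbred strain of Mus spretus, and F1 for the cross of FVB/N, a laboratory strain that is highly sensitive to skin tumour promotion, with Spret/Ei. All mice were 8 weeks old, and dorsal skin was shaved 2 days before treatment. The treatment protocol gives 1 dose of TPA on the skin, while the design text of the series speaks of replicate exposure, so the number of doses is not settled by the labels. The 4 h groups are labelled as treated, and the 0 h groups, the controls, as untreated. The protocol also names a vehicle arm, but no array analysed here is labelled as vehicle, so effects of the solvent cannot be told apart from those of TPA. The labels do not say whether 2 arrays of a group came from separate mice, so a p-value here speaks only of array-to-array variation, part of which may be technical.

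TPA is a phorbol ester that takes the place of diacylglycerol, the natural activator of protein kinase C. In mouse skin it switches on the ERK and NF-kappaB pathways within hours, and keratinocytes then make AP-1 factors, EGF receptor ligands, cytokines and chemokines that draw neutrophils into the dermis. Interferon response genes are a separate programme: type I interferons bind a receptor on the cell surface and drive antiviral genes, many of which carry an element of paired GAAA repeats. The SPR arrays at both times belong to batch 2 in the labels. Of the F1 arrays, replicate 1 at 4 h and replicates 1 and 3 at 0 h are of batch 2, and replicate 2 at 4 h and replicates 2 and 4 at 0 h are of batch 3, so a value from batch 2 alone can be set beside each result.

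The interquartile range of log2 expression over genes lay between 3.494 and 3.758 in the 10 arrays, and replicates of 1 group correlated at 0.975 to 0.992 across genes. Keratinocyte markers, which define the tissue, were high in all 10, with a mean log2 level of 11.57 and 11.41 in SPR at 4 h, 11.69 and 11.67 in SPR at 0 h, 11.50 and 11.42 in F1 at 4 h and 11.68 to 11.85 in F1 at 0 h. Several arrays stood apart in transcripts of other tissue. Hair matrix and hair shaft genes had a mean log2 level of 8.05 in replicate 1 of untreated F1 skin, against 4.55 to 5.29 in the other 9 arrays. Skeletal muscle markers had 6.10 and 6.96 in SPR at 4 h and 5.83 and 5.95 in SPR at 0 h, against 5.82 and 8.75 in F1 at 4 h and 7.64, 5.27, 7.64 and 8.06 in F1 at 0 h. Adipocyte markers were at 7.69 in replicate 2 of F1 at 4 h and at 6.38 in replicate 1. Pancreas transcripts were at 6.17 in replicate 1 of SPR at 0 h and at 4.31 to 4.92 in the other 9. In whole skin, more cells of a type and more RNA per cell cannot be told apart.

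Most of the early response was in the same direction in SPR and F1. In SPR, 484 genes rose (2.57% of the 18820 tested) and 507 fell (2.69%) at 4 h, 5.27% in all, while in F1 1027 rose (5.46%) and 946 fell (5.03%), 10.5% in all (limma, adjusted p under 0.05 and an absolute log2 change of at least 1). Called in both were 434 rises, which is 89.7% of those in SPR and 42.3% of those in F1, and 398 falls, 78.5% and 42.1%. No gene was called in opposite directions. The SPR and F1 changes share no array, and across genes, which are not independent replicates, they correlated with a Pearson r of 0.83 and a Spearman rho of 0.72. The SPR test rests on 2 control arrays and the F1 test on 4, so the numbers of calls are not of equal reach: the median standard error of a change was 0.31 in SPR and 0.27 in F1. Counts of calls in the gene lists below are to be read beside the shares called over all genes, 5.27% in SPR and 10.5% in F1. When every array was centred on its own median, the median gene moved by 0.18 in SPR and 0.13 in F1, and the split became 687 rises and 298 falls in SPR and 1281 rises and 672 falls in F1. After cyclic loess it was 665 rises and 441 falls in SPR.

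With 2 arrays to a group, many single calls hang on 1 of them. Leaving out single arrays of the 10 ended 19 of the 38 SPR calls and 15 of the 60 F1 calls of genes named here, at adjusted p up to 0.667 in SPR and 0.57 in F1. The SPR calls were those of Alox12, Alox12e, Ccl20, Ccl22, Defb14, Ereg, Foxn1, Gbp2, Gzmb, Icam1, Il1f6, Krt16, Lgr5, Msx2, Nppb, Nr4a1, Oasl1, Odc1 and Rsad2, each lost without at least 1 SPR array. The F1 calls were those of Awat2, Ccl24, Ccr4, Cd14, Hspa5, Hsph1, Mrc1, Msx2, Nr4a1, Ptch1, Rrs1, Sele, Stat3, Vcam1 and Vcan, and all 15 were lost without replicate 2 of F1 at 4 h. In batch 2 alone, where F1 has 1 treated array and 2 controls, 12 of the SPR calls and 39 of the F1 calls were lost, at adjusted p from 0.067 to 0.358 in SPR and from 0.0558 to 1 in F1. The 39 hold those 15 and the calls of Alox12, Alox5, Ccl20, Cldn8, Csf1, Ereg, Has1, Hdc, Icam1, Il1b, Il1f6, Krt16, Lgr6, Lif, Mmp12, Mmp13, Npy1r, Odc1, Prnd, Sprr2a1, Sprr2g, Sprr2i, Stfa3 and Zfp36. Of the 12 in SPR, 11 are among the 19 above and the other is Stfa3. Each of these lost calls kept its sign in batch 2. The counts themselves were 537 to 978 in SPR with 1 array left out, the lowest without replicate 2 at 4 h, with 550 and 601 without the SPR controls and 655 without replicate 1 at 4 h, and 1099 in F1 without replicate 2 at 4 h.

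**Figure D1:**
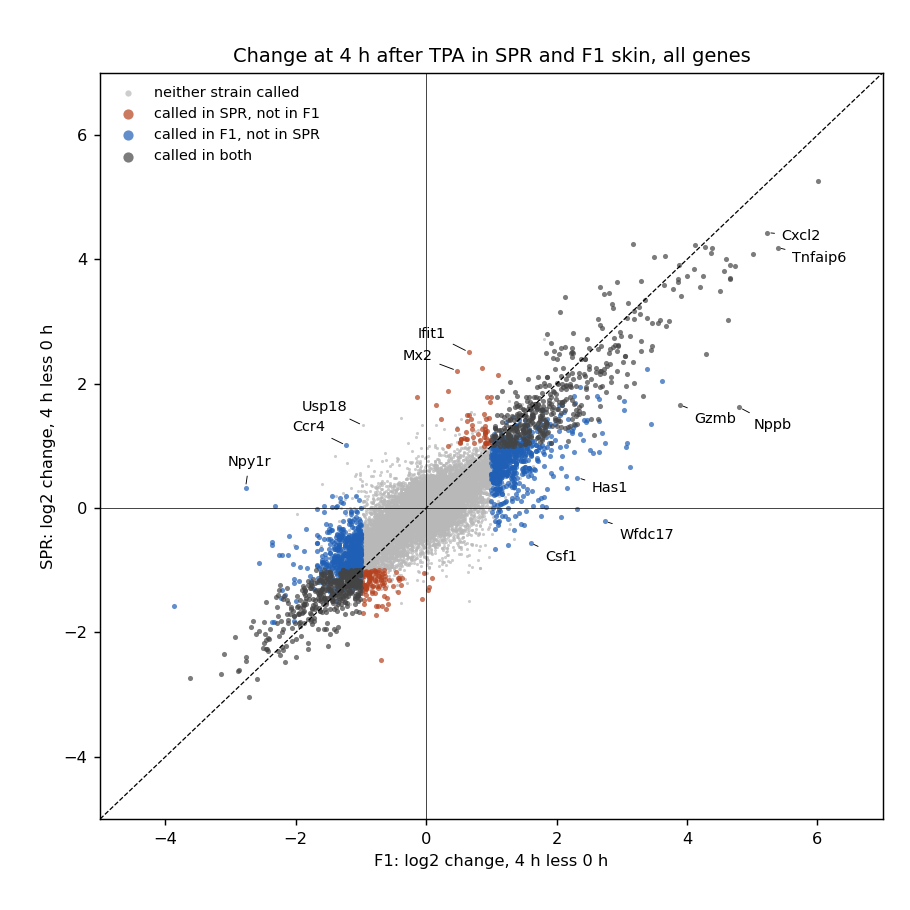
Each point is 1 of 18820 genes, with the F1 log2 change (4 h less 0 h) on the x axis and the SPR log2 change on the y axis, and colour gives the strain in which the gene was called. Most called genes lie along the dashed line of equal change (Pearson r 0.83), with Nppb, Gzmb, Has1, Wfdc17 and Csf1 below it and Npy1r, Ccr4, Usp18, Ifit1 and Mx2 above it.

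The test of the difference itself called 1 gene, Nppb, which is 0.00531% of genes tested. At an unadjusted p under 0.05 there were 462 genes (2.45%), 211 higher in SPR (1.12% of all) and 251 lower (1.33%). The share of 2.45% is below the share of 0.05 expected at this threshold if no gene differed. The 462 genes are therefore not to be read as a list of differences. These p-values come from a spread shared by 66 arrays of the series, which includes 2 arrays of narrow range from other times, replicate 1 of SPR at 12 h and replicate 2 of F1 at 72 h. Without those 2 arrays 7 genes were called (0.0372%), and with the 10 arrays fitted alone, where only 5 residual degrees of freedom remain, 12 were called (0.0638%). The median standard error of a difference was 0.41 in the full model and 0.25 with the 10 arrays alone, and the median 95% confidence interval of the full model reached 0.83 on the log2 scale to either side. For 7442 genes (39.5%) the interval lay within 1 log2 unit of no difference. Of the 2132 genes called in either strain, this held for 417 (19.6%), so for most responding genes a difference of 2-fold is not settled by these arrays.

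Nppb (probe set 10510260) encodes the precursor of B-type natriuretic peptide, known as a heart hormone and, in mouse sensory neurons, as a transmitter of itch. Its log2 level was 6.78 and 7.32 in SPR at 4 h and 5.40 and 5.46 in SPR at 0 h. In F1 it was 8.92 and 9.09 at 4 h and 4.93, 3.71, 4.08 and 4.08 at 0 h. Both treated SPR arrays lay above both SPR controls but below both treated F1 arrays, and the untreated SPR arrays lay above all 4 untreated F1 arrays. Nppb rose 3.07-fold in SPR, with a log2 change of 1.62 ± 0.42 (standard error, 2 arrays against 2, limma adjusted p = 0.00923), and 27.9-fold in F1, with 4.80 ± 0.36 (2 arrays against 4, adjusted p = 3.99e-13). The difference, SPR less F1, was -3.18 ± 0.55 (95% interval -4.30 to -2.07, limma adjusted p = 0.0131). In batch 2 alone it was -2.80 and not called (adjusted p = 1). Both the untreated and the treated level entered it, since SPR less F1 was 1.23 at 0 h and -1.95 at 4 h. The call was lost without replicate 1 of SPR at 4 h (adjusted p = 0.578), without either SPR control (0.143 and 0.197) and without replicate 2 of F1 at 4 h (0.569), while the difference stayed between -3.45 and -2.92 with any 1 array left out. It was also lost with the F1 and SPR arrays fitted alone (adjusted p = 0.0631) and with the replicate number as a block (0.0611), at differences of -3.18 and -3.14.

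At 2, 6 and 12 h of the same course the Nppb change was also smaller in SPR than in F1, and at 24 and 48 h the changes lay closer together. Its change from untreated skin was 0.82 at 2 h and 1.67 at 6 h in SPR, on 1 array each, and 1.37 at 12 h on 2 arrays. In F1 it was 1.78 at 2 h on 1 array, 4.88 at 6 h and 2.42 at 12 h on 2 arrays each. At 24 and 48 h the change was 0.96 and 0.87 in SPR, on 2 arrays each, and 1.42 and 1.2 in F1, on 2 and 3 arrays. These course values are differences of group means with no batch term. The SPR array at 6 h is of batch 3, while both SPR controls are of batch 2. At 2 h the SPR array is of batch 2 and the F1 array of batch 3, so strain and batch cannot be told apart there. The 2 SPR arrays at 12 h, at 6.77 and 6.83, include replicate 1, which is of narrow range. The level of Nppb was higher in SPR than in F1 at 2 h (6.25 against 5.98, on 1 array each). Its mean level was also higher in SPR at 12 h (6.8 against 6.62), 24 h (6.39 against 5.62) and 48 h (6.3 against 5.4). At these times the smaller SPR change thus went with a higher untreated level in SPR (5.43 against 4.2). FVB, the laboratory parent strain, had 3.46 at 2 h and 3.98 at 6 h on 3 arrays each, but has no array at 4 h and lies in a batch of its own.

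**Figure D2:**
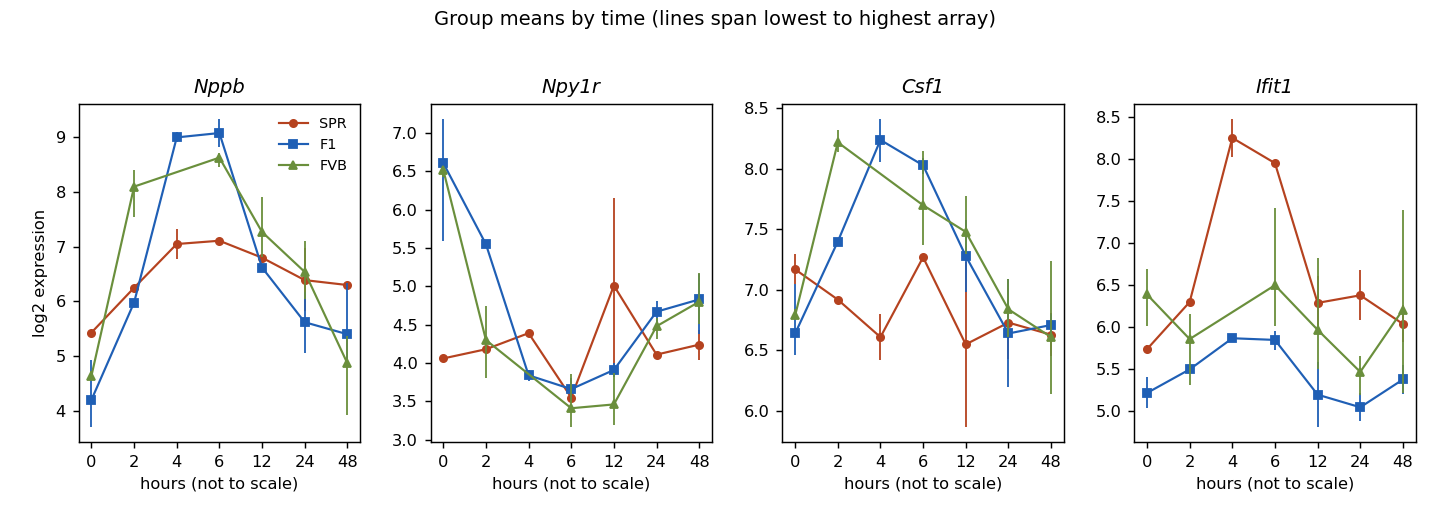
Group mean log2 expression of Nppb, Npy1r, Csf1 and Ifit1 (y axis) against hours after TPA (x axis, not to scale) in SPR, F1 and FVB, with vertical lines from the lowest to the highest array. Nppb is lower in SPR than in F1 at 4 and 6 h, Npy1r is near 4 in SPR at 0 h and near 6.6 in F1, and Ifit1 is highest in SPR at 4 and 6 h. FVB arrays are of another batch, so its levels are not to be compared with those of SPR and F1. The means carry no batch term. SPR at 6 h is an array of batch 3, SPR at 2 h of batch 2 and F1 at 2 h of batch 3. SPR at 12 h includes an array of narrow range.

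A further 17 genes were called in at least 1 of 4 other fits (cyclic loess, the 10 arrays alone, the full model without the 2 narrow arrays, and the F1 and SPR arrays without them), and none of them in the full model. They were chosen after their values were seen, and their unadjusted and adjusted p below are those of the full model. Csf1 and Has1 were called in 3 or more of the 4 fits.

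Csf1, the growth factor on which macrophages depend, had log2 levels of 6.42 and 6.80 in SPR at 4 h and 7.05 and 7.30 in SPR at 0 h, against 8.41 and 8.06 in F1 at 4 h and 6.46, 6.49, 7.05 and 6.55 in F1 at 0 h. Treated SPR skin was thus below its controls and treated F1 skin above its own, with no overlap in either. Csf1 rose in F1 by 1.60 ± 0.29 (adjusted p = 6.13e-05), the change in SPR was -0.56 ± 0.34 (adjusted p = 0.458), and the difference was -2.16 ± 0.45 (95% interval -3.06 to -1.26, adjusted p = 0.127 by limma, -2.22 in batch 2 alone). In batch 2 the F1 rise was 1.66 and not called (adjusted p = 0.129). FVB skin had changes of 1.43 at 2 h and 0.91 at 6 h.

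Has1, a synthase of the matrix sugar hyaluronan, was at 4.35 and 5.02 in SPR at 4 h and 4.22 and 4.17 in SPR at 0 h, against 5.39 and 6.40 in F1 at 4 h and 3.45, 3.46, 3.83 and 3.56 in F1 at 0 h. It rose in F1 by 2.32 ± 0.25, the SPR change was 0.49 ± 0.29 (adjusted p = 0.441), and the difference was -1.83 ± 0.38 (adjusted p = 0.127 by limma, -1.26 in batch 2 alone). In batch 2 the F1 rise was 1.75 and not called (adjusted p = 0.143). Of the 7 measured hyaluronan genes, 3 rose in SPR and 6 in F1, and the 3 were among the 6. Vcan, a proteoglycan that binds hyaluronan, rose in F1 by 1.25 with an SPR change of 0.00, and Tnfaip6, which modifies the hyaluronan matrix, rose in both, by 4.19 in SPR and 5.39 in F1. The median change of the list was 1.04 in SPR and 2.32 in F1 (1.75 in batch 2 and 2.89 in batch 3). The median of the members' differences was smaller than that gap, at -0.61 in all arrays and -0.31 in batch 2.

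Npy1r, a receptor of neuropeptide Y, differed the other way. Its log2 level was 4.37 and 4.40 in SPR at 4 h and 4.08 and 4.03 in SPR at 0 h, against 3.91 and 3.76 in F1 at 4 h and 5.59, 7.18, 6.47 and 7.18 in F1 at 0 h. Untreated SPR skin was already close to the level of treated F1 skin, and the strains differed mainly before treatment, where SPR less F1 was -2.55. Npy1r fell in F1 by 2.77 ± 0.44 (adjusted p = 7.38e-06), and the SPR change was 0.33 ± 0.51. The difference was 3.10 ± 0.67 (adjusted p = 0.169 by limma, 2.45 in batch 2 alone). In batch 2 the F1 change was -2.12 and not called (adjusted p = 0.402). Ccr4, the receptor of the chemokines Ccl17 and Ccl22, also had a lower untreated level in SPR, with SPR less F1 at -1.59. It fell in F1 by 1.23, the SPR change was 1.01 ± 0.51, and the difference was 2.24 ± 0.68 (adjusted p = 1 by limma).

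A further 5 genes, Arc, Olr1, Prnd, Wfdc17 and Gzmb, had both treated F1 levels above every other array. Arc, an immediate early gene of neurons and of migrating dendritic cells, had a change of 1.04 in SPR and rose by 3.08 in F1. Olr1, the receptor of oxidised LDL, had 0.99 in SPR and rose by 3.06 in F1. Prnd, a prion-like protein, had -0.02 in SPR and rose by 2.31 in F1 (2.20 in batch 2, where it was not called, adjusted p = 0.0923), and Wfdc17, a secreted protein of activated macrophages, had -0.21 in SPR and rose by 2.74 in F1. Gzmb, the protease granzyme B, rose in both, by 1.66 in SPR and 3.89 in F1. The differences of these 5 genes lay between -2.95 and -2.04 and their adjusted p between 0.195 and 1. Mir146, the gene of a microRNA that damps NF-kappaB signals, and Cd63, a tetraspanin, were the others that were lower in SPR.

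**Figure D3:**
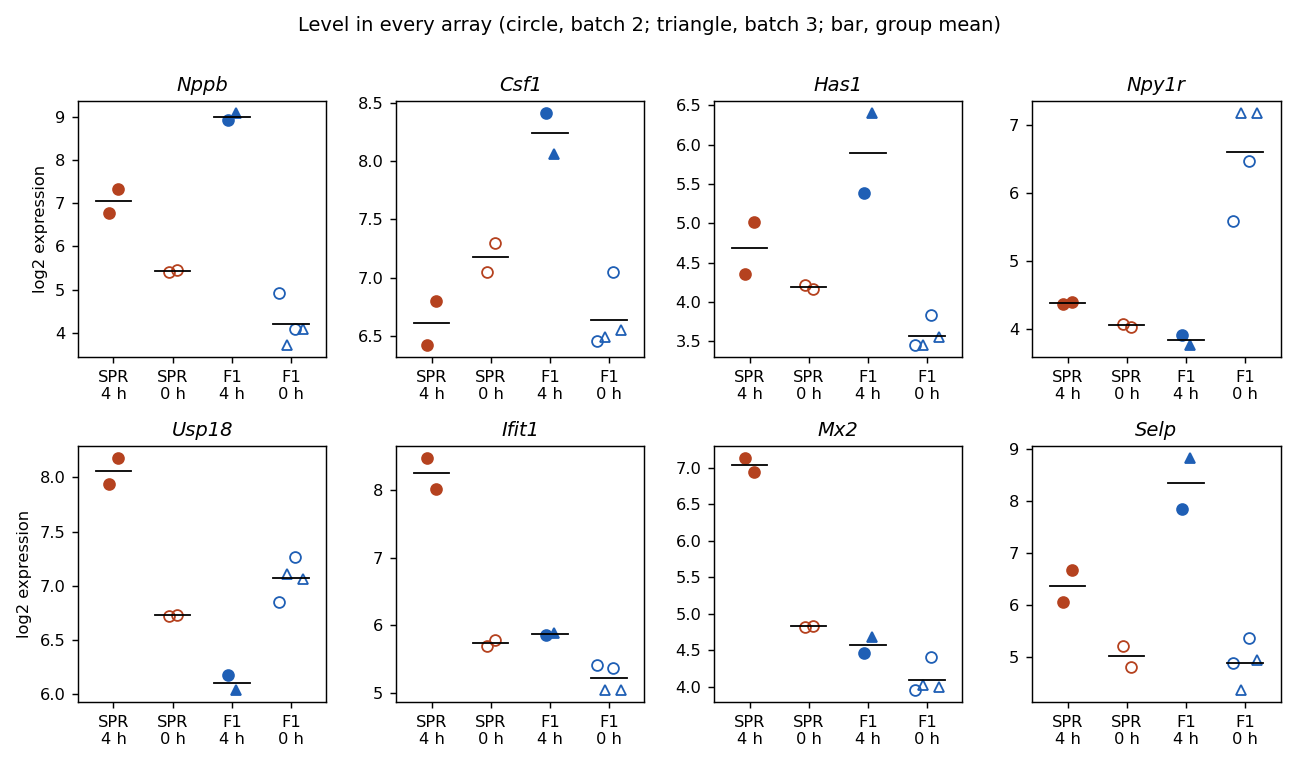
Log2 expression (y axis) of 8 genes in each of the 10 arrays, with circles for batch 2, triangles for batch 3 and a bar at the group mean. Treated SPR arrays lie below treated F1 arrays for Nppb, Csf1, Has1 and Selp, and above them for Npy1r, Usp18, Ifit1 and Mx2.

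Interferon response genes were the list with the most members whose change was higher in SPR at an unadjusted p under 0.05. Of 20 measured members, 7 rose in SPR and 4 in F1 (2 in both), with a median change of 1.33 in SPR and 0.37 in F1, against 0.00 and 0.01 over all genes. The median of the members' differences was smaller than the gap between these medians, at 0.50 in all arrays and 0.39 in batch 2. For 4 of the 20 the difference was below 0. Higher in SPR at the unadjusted threshold were 7 members, against 1.12% of all genes. No member was lower at that threshold, and none was called after adjustment. Across batch 2 alone, both scalings and each SPR array, each treated F1 array or replicate 1 of untreated F1 skin left out, between 5 and 8 members were past that unadjusted threshold.

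The mean log2 level of the 20 genes was 7.55 and 7.50 in SPR at 4 h and 6.20 and 6.25 in SPR at 0 h, against 6.30 and 6.34 in F1 at 4 h and 5.83, 5.76, 5.88 and 5.72 in F1 at 0 h. Both treated SPR arrays thus stood more than 1 log2 unit above every other array, and treated F1 skin was near untreated SPR skin. The levels of SPR and F1 may also differ because the arrays' probes match their transcripts to a different degree. The size of a change within a strain may be affected as well, and neither was tested.

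Several of these genes carry the interferon element close to their start. RefSeq promoter windows of 300 bases, reaching just past the gene's start (reference mouse assembly GRCm38.p6, not Spret/Ei sequence), were searched on both strands for a pair of GAAA repeats with any 2 bases between them, overlapping matches included. It occurred in 3.44% of 32851 windows and in at least 1 window of 3.99% of 27025 genes, and in 10 of the 16 interferon list members that the table holds. Usp18, Mx1, Mx2 and Oas2 are not in that table. Of the 7 members above, the table holds Ifit1, Rsad2 and Isg15, whose windows have a match and are printed, and Oasl1, whose window has none. Each runs 5′ to 3′ along the gene, with letters of a match in capitals, and a match is a description of letters and no sign of binding.
Ifit1, chr19:34640639-34640938, plus strand: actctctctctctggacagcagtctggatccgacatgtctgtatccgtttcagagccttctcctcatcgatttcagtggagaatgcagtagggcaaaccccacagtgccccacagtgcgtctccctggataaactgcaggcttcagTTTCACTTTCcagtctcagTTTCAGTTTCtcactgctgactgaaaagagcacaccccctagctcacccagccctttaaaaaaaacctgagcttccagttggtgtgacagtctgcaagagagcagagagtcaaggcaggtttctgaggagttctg
Rsad2, chr12:26456403-26456702, minus strand: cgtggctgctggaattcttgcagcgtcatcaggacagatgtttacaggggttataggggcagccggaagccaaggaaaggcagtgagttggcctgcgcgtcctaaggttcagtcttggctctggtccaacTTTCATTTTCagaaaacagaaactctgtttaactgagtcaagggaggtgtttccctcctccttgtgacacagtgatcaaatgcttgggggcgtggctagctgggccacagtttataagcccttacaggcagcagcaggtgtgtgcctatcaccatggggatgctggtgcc
Isg15, chr4:156200769-156201068, minus strand: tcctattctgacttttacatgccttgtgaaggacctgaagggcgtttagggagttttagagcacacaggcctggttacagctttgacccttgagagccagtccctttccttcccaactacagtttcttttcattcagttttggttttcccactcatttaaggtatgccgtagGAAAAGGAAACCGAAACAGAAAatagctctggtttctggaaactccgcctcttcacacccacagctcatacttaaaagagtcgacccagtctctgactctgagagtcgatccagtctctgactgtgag

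Usp18, the protease that removes ISG15 from proteins and restrains interferon receptor signals, had log2 levels of 7.94 and 8.18 in SPR at 4 h and 6.72 and 6.73 in SPR at 0 h, against 6.17 and 6.03 in F1 at 4 h and 6.85, 7.11, 7.26 and 7.06 in F1 at 0 h. Treated arrays lay above the controls in SPR and below them in F1. The changes, 1.33 ± 0.47 in SPR and -0.97 ± 0.40 in F1, did not pass the test (adjusted p = 0.073 and 0.0856), and the difference was 2.30 ± 0.62 (95% interval 1.06 to 3.54, unadjusted p = 0.000534, adjusted p = 0.569 by limma, 2.22 in batch 2 alone).

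Ifit1, which binds viral RNA that lacks a methylated cap, was at 8.47 and 8.02 in SPR at 4 h and 5.69 and 5.79 in SPR at 0 h, against 5.86 and 5.88 in F1 at 4 h and 5.41, 5.05, 5.37 and 5.04 in F1 at 0 h. It rose in SPR by 2.51 ± 0.51 (adjusted p = 0.000845), and the change in F1 was 0.65 ± 0.44 (adjusted p = 0.352). The difference was 1.86 ± 0.67 (95% interval 0.50 to 3.22, unadjusted p = 0.0086, adjusted p = 1 by limma). In SPR the change was 0.57 at 2 h and 2.22 at 6 h, on 1 array each, and 0.55 at 12 h, while in FVB it was -0.53 at 2 h and 0.11 at 6 h. These course values have no batch term. The SPR array at 6 h is of batch 3, unlike its controls, and replicate 1 of SPR at 12 h is of narrow range.

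Mx2, a dynamin-like antiviral GTPase, was at 7.13 and 6.94 in SPR at 4 h and 4.82 and 4.83 in SPR at 0 h, against 4.46 and 4.68 in F1 at 4 h and 3.95, 4.03, 4.41 and 3.99 in F1 at 0 h. It rose in SPR by 2.21 ± 0.39, and the F1 change was 0.47 ± 0.34, a difference of 1.74 ± 0.52 (unadjusted p = 0.00157, adjusted p = 0.923 by limma). Rsad2, viperin, which blocks viral RNA synthesis, rose in SPR by 1.79 ± 0.50, with -0.14 ± 0.43 in F1. Its treated SPR levels of 7.44 and 7.39 stood above 5.72 and 5.54 in SPR at 0 h, while F1 had 4.52 and 4.94 at 4 h inside its control range of 4.65 to 5.14 or below it.

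Oasl1, of the oligoadenylate synthetase family, rose in SPR by 1.65 ± 0.38, with 0.15 ± 0.33 in F1. Isg15, the ubiquitin-like modifier, had a change of 1.34 ± 0.45 in SPR (adjusted p = 0.0554) and -0.06 ± 0.39 in F1. Eif2ak2, the double-stranded RNA kinase PKR, is not on the list and was chosen after its values were seen: it rose in SPR by 1.43 ± 0.28, with 0.22 ± 0.24 in F1. The members that rose in both, Irf1, a transcription factor also induced by NF-kappaB, by 2.29 in SPR and 2.50 in F1, and Gbp2, a GTPase induced by interferon-gamma, by 2.63 and 2.89, were also named after their values were seen. Mx1 changed by 0.62 ± 0.39 in SPR and 0.45 ± 0.34 in F1, neither past the test.

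**Figure D4:**
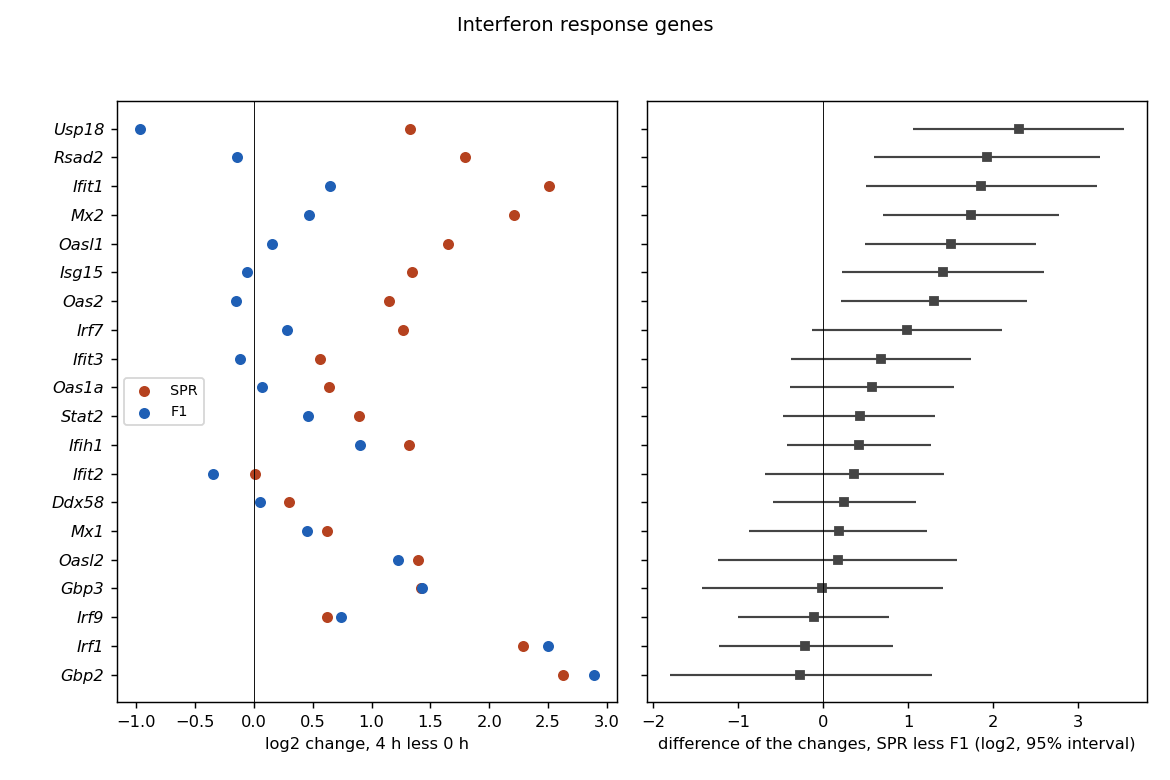
The 20 measured interferon response genes ordered by the difference, with the log2 change in SPR and F1 on the left x axis and the difference, SPR less F1, with its 95% interval on the right x axis. The intervals of the upper 7 genes, Usp18 to Oas2, lie above 0, and those of the other 13 include it.

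The leukocyte adhesion genes leaned the other way. All 9 measured members had a lower change in SPR, against 9695 of 18820 over all genes, and 1 rose in SPR and 4 in F1. This was not particular to the adhesion genes. Every measured member also had a lower change in SPR among collagen and fibroblast genes (13), Langerhans and dendritic cell markers (11), ribosome biogenesis genes (15) and polyamine genes (6). Members of a list may move together, so such counts are not of independent genes. Of the adhesion genes, 4 reached an unadjusted p under 0.05, all lower in SPR, where 1.33% of all genes were. None was called in the difference. The median change of the adhesion genes was 0.22 in SPR and 0.57 in F1, and 0.22 in F1 within batch 2. The median of their differences was -0.44 in all arrays and -0.30 in batch 2.

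Selp, P-selectin of endothelium and platelets, was at 6.06 and 6.68 in SPR at 4 h and 5.22 and 4.81 in SPR at 0 h, against 7.85 and 8.82 in F1 at 4 h and 4.88, 4.36, 5.36 and 4.95 in F1 at 0 h. Treated arrays were above controls in both strains, and both treated F1 arrays were above both treated SPR arrays. Selp rose in F1 by 3.45 ± 0.43 (adjusted p = 6.42e-08), the SPR change was 1.36 ± 0.49 (adjusted p = 0.0876), and the difference was -2.08 ± 0.65 (unadjusted p = 0.00258, adjusted p = 1 by limma, -1.36 in batch 2 alone).

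Icam1, the endothelial ligand of leukocyte integrins, rose in both strains, by 1.80 in SPR and 3.33 in F1, with a difference of -1.52 ± 0.61. Vcam1 and Sele, further adhesion molecules of activated endothelium, rose in F1 by 2.07 and 1.54, with SPR changes of 0.64 and 0.25. Without replicate 2 of F1 at 4 h neither was called in F1. Sele was at 5.94 in replicate 1 of F1 at 4 h and 7.50 in replicate 2, and its difference was -1.30 in all arrays and -0.30 in batch 2. Endothelial markers had a mean level of 6.28 and 6.62 in SPR at 4 h and 6.48 and 6.47 in SPR at 0 h, against 6.51 and 6.74 in F1 at 4 h and 6.28 to 6.57 in F1 at 0 h. Their part in these differences was not tested.

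Cytokines of the IL-6 and colony-stimulating families rose in both strains, 6 of 14 in SPR and 9 in F1. Il6 was at 5.99 and 6.96 in SPR at 4 h and 4.11 and 3.91 in SPR at 0 h, against 6.84 and 8.36 in F1 at 4 h and 3.31, 3.08, 3.81 and 3.03 in F1 at 0 h. It rose by 2.47 ± 0.47 in SPR and 4.29 ± 0.40 in F1, and the difference was -1.83 ± 0.62 (unadjusted p = 0.005), but -0.81 in batch 2, where the F1 level lay between the 2 SPR levels. Lif had a change of 0.90 in SPR, under the fold threshold, and rose by 1.79 in F1. Stat3, which relays both signals, had 1.02 in SPR, not past the test, and rose by 1.49 in F1.

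Il33, an alarmin stored in the nuclei of keratinocytes and stroma, was at 6.50 and 6.99 in SPR at 4 h and 7.50 and 7.84 in SPR at 0 h, against 8.64 and 8.18 in F1 at 4 h and 7.50, 7.84, 7.72 and 7.97 in F1 at 0 h. The treated arrays lay below the controls in SPR and above them in F1. Neither change passed the test (-0.92 ± 0.33 in SPR and 0.65 ± 0.28 in F1), and the difference was -1.57 ± 0.43 (unadjusted p = 0.000754, adjusted p = 0.71 by limma, -1.95 in batch 2). Of the 14 measured IL-1, IL-36 and TNF genes, 4 rose in SPR and 5 in F1, the 4 among the 5, Il1b by 3.41 in SPR and 3.90 in F1 and Il1f6, an IL-36 cytokine, by 1.78 and 2.47. The difference for Il1b was -0.50 in all arrays and 0.41 in batch 2 alone.

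Chemokines rose broadly in both strains. Of 13 measured CXC chemokines and receptors, 7 rose in SPR and 9 in F1, and of 13 CC chemokines 8 and 11, with every SPR rise also called in F1. Cxcl2, which draws neutrophils, rose by 4.43 ± 0.70 in SPR and 5.23 ± 0.61 in F1, and its receptor Cxcr2 by 3.81 and 4.57. Among CC chemokines, the differences furthest from 0 were those of Ccl20 at -1.59, Ccl17 at -1.56, Ccl22 at -1.18 and Ccl24 at -1.15. Ccl20, the ligand of Ccr6, rose by 3.03 in SPR and 4.63 in F1, yet its treated levels, 11.61 and 11.41 in SPR and 11.21 and 11.54 in F1, overlapped, and the untreated gap was 1.73. The median difference of the CC list was -0.58 in all arrays and 0.01 in batch 2 alone. Neutrophil markers had a mean level of 5.81 and 6.20 in SPR at 4 h and 4.79 and 4.70 in SPR at 0 h, against 5.48 and 5.85 in F1 at 4 h and 4.16 to 4.57 in F1 at 0 h, and 4 of 14 rose in SPR and 5 in F1.

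In 4 lists of signalling genes, the AP-1 and immediate early genes, NF-kappaB genes, EGF receptor ligands and ERK feedback genes, no difference had an unadjusted p under 0.05. Few were bounded tightly. Of 15 measured protein kinase C genes, 1 had a lower change in SPR at that threshold, and none was called in the difference. Of 18 AP-1 and immediate early genes, 10 rose in SPR and 13 in F1, the 10 among the 13, with a median difference of -0.17 in all arrays and 0.18 in batch 2. Nr4a1, an orphan nuclear receptor, rose by 1.97 in SPR and 2.29 in F1, and Zfp36, which destabilises cytokine mRNAs, by 1.36 and 1.59. The 95% intervals of the difference lay within 1 log2 unit for 7 of these 18, for 2 of 14 NF-kappaB subunits and feedback genes, for 0 of 9 EGF receptor ligands and for 4 of 14 ERK feedback genes, so a 2-fold difference is not settled for most of them. Of the 14 NF-kappaB genes, 9 rose in SPR and 12 in F1, the 9 among the 12. Their median change was 1.34 in SPR and 1.71 in F1. Of the 14, 13 had a difference below 0, against 9695 of 18820 over all genes (list median -0.27 in all arrays, -0.13 in batch 2). Bcl3, an NF-kappaB partner, rose by 3.49 in SPR and 4.50 in F1, and Tnfaip3, the feedback enzyme A20, by 2.23 and 2.73. Ereg, an EGF receptor ligand, rose by 1.64 in SPR and 2.66 in F1, with a difference of -1.01 whose 95% interval ran from -2.33 to 0.31.

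Of 16 genes for stress keratins or small proline-rich proteins, products of keratinocytes under stress, 8 rose in SPR and 12 in F1, the 8 among the 12. Sprr2g, a cornified envelope precursor, was at 5.29 and 5.35 in SPR at 4 h and 4.47 and 4.86 in SPR at 0 h, against 7.37 and 7.45 in F1 at 4 h and 4.47, 3.70, 5.15 and 3.85 in F1 at 0 h. It rose in F1 by 3.12 ± 0.54, the SPR change was 0.66 ± 0.63, and the difference was -2.46 ± 0.83 (unadjusted p = 0.00478, -1.91 in batch 2). Sprr2a1 and Sprr2i had differences of -1.67 and -1.34 with F1 rises of 2.56 and 1.91. Sprr2 genes are close paralogues, and how well their probes tell them apart was not tested. Krt16, a keratin of wounded epidermis, rose by 3.70 in SPR and 4.66 in F1.

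Epidermal barrier, lipid mediator and gland genes gave single differences. Cldn8, a tight junction claudin, was at 5.69 and 5.86 in SPR at 4 h and 6.16 and 6.48 in SPR at 0 h, against 5.75 and 4.93 in F1 at 4 h and 7.63, 8.21, 7.36 and 7.63 in F1 at 0 h. It fell in F1 by 2.37 ± 0.31, the SPR change was -0.55 ± 0.35, and the difference was 1.82 ± 0.47 (adjusted p = 0.466 by limma), beside an untreated gap of -1.39. Alox5, the enzyme that starts leukotriene synthesis, had levels of 7.64 and 7.19 in SPR at 4 h and 8.11 and 7.98 in SPR at 0 h, against 6.58 and 6.03 in F1 at 4 h and 7.86 to 8.56 in F1 at 0 h. The treated arrays were lower in both strains, and Alox5 fell in F1 by 1.99 ± 0.27, with an SPR change of -0.63 ± 0.32 and a difference of 1.36 ± 0.42 (unadjusted p = 0.00215, 0.88 in batch 2).

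Mc5r, the melanocortin receptor of sebaceous glands, was at 5.49 and 6.04 in SPR at 4 h and 8.06 and 8.33 in SPR at 0 h, against 7.41 and 8.30 in F1 at 4 h and 8.68, 8.59, 8.13 and 8.82 in F1 at 0 h. It fell in SPR by 2.44 ± 0.44 (adjusted p = 0.000179), the F1 change was -0.70 ± 0.38, and the difference was -1.73 ± 0.58 (unadjusted p = 0.00457, -1.44 in batch 2). Awat2, a wax ester synthase of the same glands, rose in F1 by 1.35 with an SPR change of -0.35. Of 17 sebaceous lipid genes, 14 had a difference below 0, against 9695 of 18820 over all genes. The list median was -0.40, and 1 member fell in SPR while 4 rose in F1.

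Hdc, the histamine-forming enzyme of mast cells, rose in F1 by 2.15 ± 0.36, with 0.51 ± 0.41 in SPR, but F1 had 6.17 in batch 2 and 7.58 in batch 3 at 4 h, and the difference was -1.64 in all arrays and -0.79 in batch 2. Mast cell markers had a mean level of 4.90 and 5.37 in SPR at 4 h and 5.17 and 5.22 in SPR at 0 h, against 4.98 and 5.60 in F1 at 4 h and 4.64 to 5.07 in F1 at 0 h, and their part in the Hdc value was not tested.

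Of 14 hair follicle stem cell genes, 7 fell in SPR and 6 in F1, 6 of them in both, among them Lgr5 (-1.81 in SPR and -2.66 in F1), Lgr6 (-1.92 and -1.35) and the hedgehog receptor Ptch1 (-2.02 and -1.47), and the median difference was 0.00. Of 13 clock genes, 4 fell in each strain, the same 4, with Per3 falling by 2.12 in SPR and 2.45 in F1, while 3 rose in SPR and 2 in F1, the 2 among the 3. Of 16 DNA replication genes, 3 fell in each strain, the same 3, and of 17 mitosis genes 3 fell in SPR and 5 in F1, 2 of them in both. Of 15 ribosome biogenesis genes, 5 rose in SPR and 12 in F1, the 5 among the 12. All 15 had a difference below 0, against 9695 of 18820 over all genes (list median -0.51 in all arrays, -0.29 in batch 2). Rrs1, needed for the large ribosomal subunit, rose in F1 by 1.78, with an SPR change of 0.03.

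Of 18 matrix proteases and inhibitors, 7 rose in SPR and 10 in F1, the 7 among the 10. Mmp13, a collagenase, was at 9.31 and 8.79 in SPR at 4 h and 5.44 and 5.38 in SPR at 0 h, against 7.94 and 7.89 in F1 at 4 h and 4.16 to 6.04 in F1 at 0 h, and rose by 3.64 in SPR and 2.93 in F1. Mmp12, the macrophage elastase, rose in F1 by 2.25, with 1.28 in SPR, where untreated skin was already 1.89 above that of F1. Of 10 antimicrobial and stefin genes, 6 rose in SPR and 5 in F1 (4 in both). Stfa3, a protease inhibitor of neutrophils, rose by 4.25 in SPR and 3.17 in F1, and the defensin gene Defb14 rose in SPR by 1.78, with 0.93 in F1. Of 14 cyclooxygenase and lipoxygenase genes, 4 rose in SPR and 3 in F1 (3 in both), and 3 fell in SPR and 4 in F1 (3 in both). Among them, Alox12e rose in SPR by 1.79, with 0.99 in F1, and Alox12 fell by 1.17 in SPR and 1.81 in F1.

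Odc1, the enzyme that starts polyamine synthesis and a classical target of TPA, rose by 1.48 in SPR and 2.29 in F1, and 3 of 6 polyamine genes rose in SPR and 4 in F1. Slc7a11, the cystine transporter, rose by 3.91 and 4.66. Of 13 heat shock and unfolded protein response genes, none was called in SPR and 4 rose in F1, while 2.57% of all genes rose in SPR and 5.46% in F1. The chaperone Hspa5 had changes of 0.56 in SPR and 1.50 in F1, and the chaperone Hsph1 had 0.60 and 1.57. Both differences, -0.94 ± 0.72 and -0.97 ± 0.52, have 95% intervals that include 0. Mrc1 and Cd14, macrophage markers, rose in F1 by 2.51 and 1.58, with 0.94 and 0.64 in SPR, and neither was called in F1 without replicate 2 at 4 h. The 13 macrophage markers had a mean level of 6.48 and 6.93 in SPR at 4 h and 6.43 and 6.46 in SPR at 0 h, against 6.29 and 6.87 in F1 at 4 h and 5.58 to 6.12 in F1 at 0 h.

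**Figure D5:**
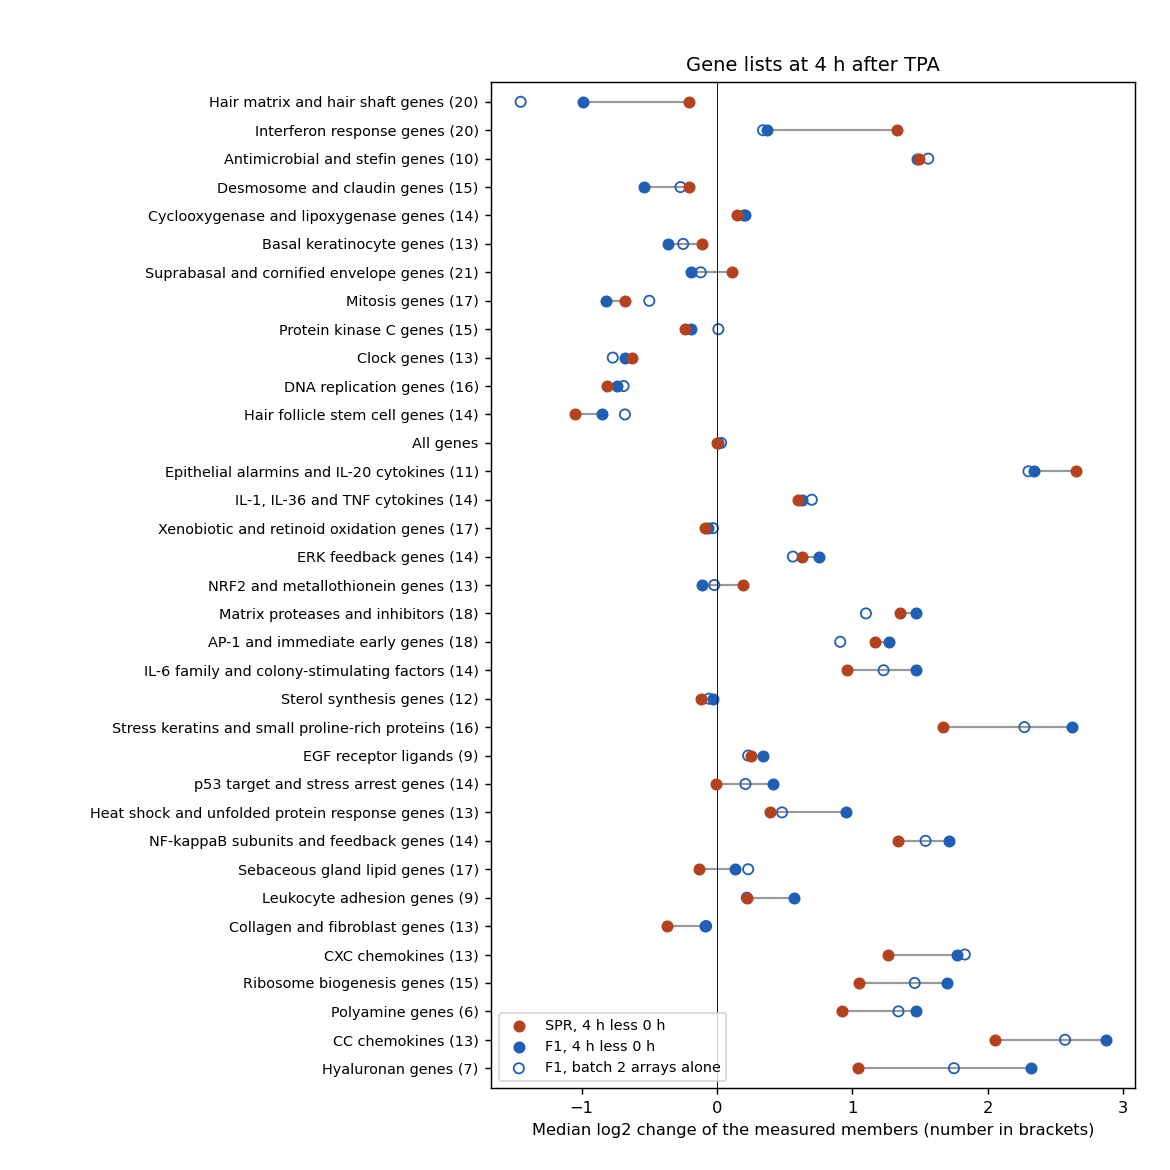
Median log2 change at 4 h (x axis) of each gene list in SPR, in F1 and in the F1 arrays of batch 2 alone, with lists ordered by the median difference of their members. Interferon response genes lie at 1.33 in SPR and 0.37 in F1, CC chemokines at 2.05 and 2.87, and the hair matrix list at -0.21 and -0.99, where F1 rests on 1 control array. The gap between the SPR and F1 medians of a list need not equal the median difference of its members.

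The hair matrix and hair shaft genes had the highest list median of the difference, 0.79, but this rested on 1 array. Without replicate 1 of untreated F1 skin the median was -0.04, and within batch 2, where that array is 1 of 2 controls, it was 1.71. Foxn1 and Msx2, regulators of the hair matrix named here after their values were seen, were the 2 of 20 members called, and both fell in both strains.

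Genes that responded in FVB are a set in which the SPR and F1 changes can be set side by side. This set was added after these data were seen. Its FVB changes came from FVB arrays alone, but the spread behind their p-values was shared with SPR and F1 arrays. FVB is also a parent of F1, so a set chosen for its FVB response may favour F1 over SPR, which was not tested. The counts and medians below are therefore not a neutral comparison of SPR with F1. Of the 509 genes that rose in FVB at both 2 and 6 h, 285 rose in SPR and 425 in F1 at 4 h. Their median change was 1.29 in SPR and 1.64 in F1, and 423 had a difference below 0, against 9695 of 18820 over all genes. The median difference was -0.33 in all arrays and -0.09 in batch 2, where the F1 median was 1.44, against 1.83 in batch 3. Of the 232 genes that fell in FVB at both times, 122 fell in SPR and 187 in F1, with medians of -1.20 in SPR and -1.48 in F1, and the median difference was 0.29 in all arrays and 0.03 in batch 2. With 1 array left out, the median difference ran from -0.46 to -0.16 in the first set and from 0.09 to 0.44 in the second, nearest to 0 without replicate 2 of F1 at 4 h and furthest without replicate 1 of F1 at 4 h. The lean of both sets toward a smaller SPR change was thus close to 0 in batch 2 alone, which leaves out that replicate 2 and 2 F1 controls.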

How the data were processed

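The arrays are Affymetrix arrays, hybridised with biotin-labelled RNA of dorsal skin. The deposited values are log2 expression values of 35556 probe sets, and the submitters' processing notes name RMA, without a version. The sources used here do not say whether batches were adjusted before deposit. Gene symbols came from the platform annotation (21218 with 1 symbol, 1881 with several and 12457 not listed), and each of 18820 genes is its probe set with the highest mean. Genome coordinates of probe sets are not given.

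All tests used limma (version 3.58.1, R 4.3.3) on 66 assigned arrays, with 27 group means and a batch 3 term fitted together (38 residual degrees of freedom), two-sided. The 3 arrays with no strain in their labels were not used. Called genes have a Benjamini-Hochberg adjusted p under 0.05 over all genes and an absolute log2 value of at least 1, and rose or fell is used only of called genes. Errors are standard errors of the fit. Depth does not apply to arrays, whose number limits the precision. Genes named are called differences with the same sign in batch 2, the 4 members of a list that differ most, and genes said to be chosen after their values were seen. Isg15 and Mx1, of the interferon list, are named outside these rules. The comparison, its lists and its tests were chosen with earlier results of these data known. The fit was tested on simulated data.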

Additional observations from a re-analysis of the deposited data

Results flagged for a closer look

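The Nppb difference of -3.18 between SPR and F1 is listed because the test of the difference itself called it. The 4 untreated F1 arrays were also checked, over 122 values (49 list levels and 73 genes), for 1 array far from the other 3, which chance gives in about 1 of 20 groups, and 7 were found. Hair matrix and hair shaft genes were at 8.05 in replicate 1, against 4.73 to 5.12 in the others. Skeletal muscle markers were at 5.27 in replicate 2, against 7.64 to 8.06. The hyaluronan list was at 5.40 in replicate 4, against 5.65 to 5.70. Among genes, Csf1 was at 7.05 in replicate 3, against 6.46 to 6.55, and Zfp36 at 7.63 in replicate 2, against 7.90 to 7.95. Mmp12 was at 5.42 in replicate 1, against 5.11 to 5.12, and Per3 at 8.21 in replicate 1, against 8.78 to 8.87.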

How the results depend on the processing

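The number of genes called in the difference, 1 in the full model, was also 1 with trend and robust variance, median centring, dim probe sets left out, all probe sets, no fold threshold and no batch term. It was 3 after cyclic loess, 7 without the 2 narrow arrays, 12 with the 10 arrays alone, 11 with the F1 and SPR arrays without the narrow ones (chosen after seeing the data), and 0 with the F1 and SPR arrays alone, in batch 2 alone and with the replicate block. It was 0 among 18624 genes of similar untreated level, a set without Nppb. With 1 array left out it ran from 0 to 3. Same-numbered arrays were not shown to be pairs (correlations of deviations from -0.15 to 0.12), and the SPR 4 h numbers crossed in the block, chosen after seeing the data, also gave 0. The block gave 958 calls in SPR and 1916 in F1.

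The SPR count of 991 was 467 in batch 2 alone and 537 to 978 with 1 array left out. The F1 count of 1973 was 3868 with no fold threshold, 163 in batch 2 alone, where 1 treated array is left, and 1099 to 2169 with 1 array left out. The share of rises among SPR calls was 48.8% and, after median centring, 69.7%, and in F1 it was 52.1% and 65.6%. The other alternatives kept both counts within 1.5 times.

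Differences of 9 named genes, none called, changed sign. In batch 2 alone Il1b was 0.41, Nr4a1 0.43, Zfp36 0.02, Krt16 0.17, Cd14 0.12 and Irf1 0.13. With 1 array left out, Il1b ran from -1.09 to 0.10, Nr4a1 from -0.97 to 0.32, Zfp36 from -0.49 to 0.02 and Irf1 from -0.43 to 0.02, each above 0 only without replicate 2 of F1 at 4 h. Gbp2 ran from -0.54 to 0.00, Foxn1 from -0.03 to 0.59 and Msx2 from -0.25 to 0.39. The causes were not tested. Precision is limited by the number of arrays. Levels between strains, and the size of changes within a strain, may be affected by how well probes match each genome, which was not tested.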
